A study of Arabidopsis thaliana with 8 samples.

Results

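The antenna of photosystem II was read on this array through 2 of its 3439 features. One feature, number 2665, was assigned only to LHB1B2 (AT2G34420, also called LHCB1.5), a gene for a major light-harvesting protein. The other, number 3446, was shared by exactly LHCB4.1 (AT5G01530), LHCB4.2 (AT3G08940) and LHCB4.3 (AT2G40100), the genes for the minor antenna protein CP29. It was read as 1 signal of the LHCB4 family, since the share of each of the 3 genes in it cannot be told apart. The rule that picked the features used the annotation, though it was set with earlier results of these data known.

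Photosystem II splits water and passes the electrons on to the chain that ends at photosystem I. The proteins of the LHCB1 group, with those of LHCB2 and LHCB3, form the trimers of the mobile and abundant major antenna, LHCII, which gathers most of the light for photosystem II. The LHCB4 proteins are monomers that sit between these trimers and the core of the photosystem and link them. Part of LHCII can move to photosystem I when its proteins are phosphorylated, and in Arabidopsis the H subunit of photosystem I is known to be needed for its docking there.

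The 1-channel arrays measured RNA of 8 Arabidopsis thaliana samples, which all belong to ecotype Columbia 0. Of these, 4 came from the wild type (WT) and 4 from the psah2k double mutant, each numbered 1 to 4. The line name points to the photosystem I subunits H and K, whereas the sample description names E1 and K as the missing proteins. PSAH2, PSAK and PSAE1 each lack a feature of their own, so the genotype was not checked from the targeted transcripts. The labels used here give neither organ, age nor growth conditions, and do not say whether the 4 samples of a genotype were separate plants. The p-values therefore measure only the spread between these arrays, which may be technical. Of the 7 green tissue markers and the 7 markers of other organs that were listed, none had a feature of its own, so the organ was not checked either.

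The arrays of the genotypes differed as a whole, which touches every result below. The median deposited intensity was 0.304 to 0.336 in WT and 0.0506 to 0.0582 in psah2k. The 99th percentile went the other way, from 8.89 to 11.1 in WT and from 12.3 to 15.9 in psah2k. The summed intensity of all features was 3090 ± 120.5 in WT against 2650 ± 229.7 in psah2k (SD, n = 4 each). Values of 0 were given to 448 to 472 features per WT array and to 739 to 1014 per psah2k array. Both antenna features were above 0 on all 8 arrays. Intensities are on a linear scale, and the number of arrays limits the precision.

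The feature of LHB1B2 was brighter on every psah2k array than on any WT array as deposited, while its rank, already near the top in WT, overlapped between the genotypes. Its intensities were 11.3, 13.6, 8.73 and 9.48 on WT arrays 1 to 4. They were 20.7, 19.2, 17.6 and 19.5 on psah2k arrays 1 to 4. The lowest psah2k array thus stood above the highest WT array, WT 2, and the WT arrays were more spread. Over the array, 7.18% of tested features had every psah2k intensity above every WT intensity, and 72.6% had every one below. The mean was 10.8 ± 2.14 in WT and 19.3 ± 1.25 in psah2k (SD, n = 4 each), a ratio of 1.79. In WT the SD came to 19.9% of the mean, against 6.49% in psah2k.

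By percentile rank, the share of the array's features at or below a feature, LHB1B2 was at 99.07, 99.30, 98.98 and 99.04 on WT arrays 1 to 4. It was at 99.27, 99.19, 99.27 and 99.27 on psah2k arrays 1 to 4. Between 24 and 35 features were brighter on a WT array and between 25 and 28 on a psah2k array. WT 2, with the highest rank of all, kept the genotypes from separating. At such ranks less than about 1 point was left for a rise, so the rank says little about a rise of LHB1B2. The mean rank was 0.153 percentage points higher in psah2k, which did not pass the exact permutation test (two-sided p = 0.143, also 0.143 after Benjamini-Hochberg adjustment over the 4 exact tests made here). Leaving out each array in turn gave exact permutation p-values of 0.143 to 0.257 for 7 of the 8 arrays. Without WT 2, the array that caused the overlap, the difference was 0.221 points (exact permutation p = 0.0286, the lowest value possible for 3 against 4 arrays).

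The LHCB4 family feature showed the opposite pattern: its deposited intensity overlapped between the genotypes, and its rank rose. Its intensities were 0.472, 0.370, 0.580 and 0.462 on WT arrays 1 to 4. They were 0.545, 0.507, 0.481 and 0.494 on psah2k arrays 1 to 4. All 4 psah2k values lay inside the WT range, which ran from WT 2 to WT 3. The mean was 0.471 ± 0.0858 in WT and 0.507 ± 0.0276 in psah2k (SD, n = 4 each), a ratio of 1.08. As with LHB1B2, the WT arrays were the more spread, with an SD of 18.2% of the mean against 5.45%.

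The percentile rank of the LHCB4 feature was 63.4, 54.0, 74.2 and 66.1 on WT arrays 1 to 4. It was 87.4, 86.2, 87.6 and 87.7 on psah2k arrays 1 to 4. Every psah2k array was thus above every WT array, and the psah2k ranks were close together. The mean rank rose from 64.4 ± 8.34 to 87.2 ± 0.698 (SD, n = 4 each), by 22.8 percentage points (exact permutation test, two-sided p = 0.0286, adjusted p = 0.0381 over the 4 tests). With 4 arrays a genotype, p cannot go below that 0.0286. Such a complete separation upward was common: of the 2353 features tested, 31.2% had every psah2k rank above every WT rank, and 21.6% had every psah2k rank below.

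**Figure D1:**
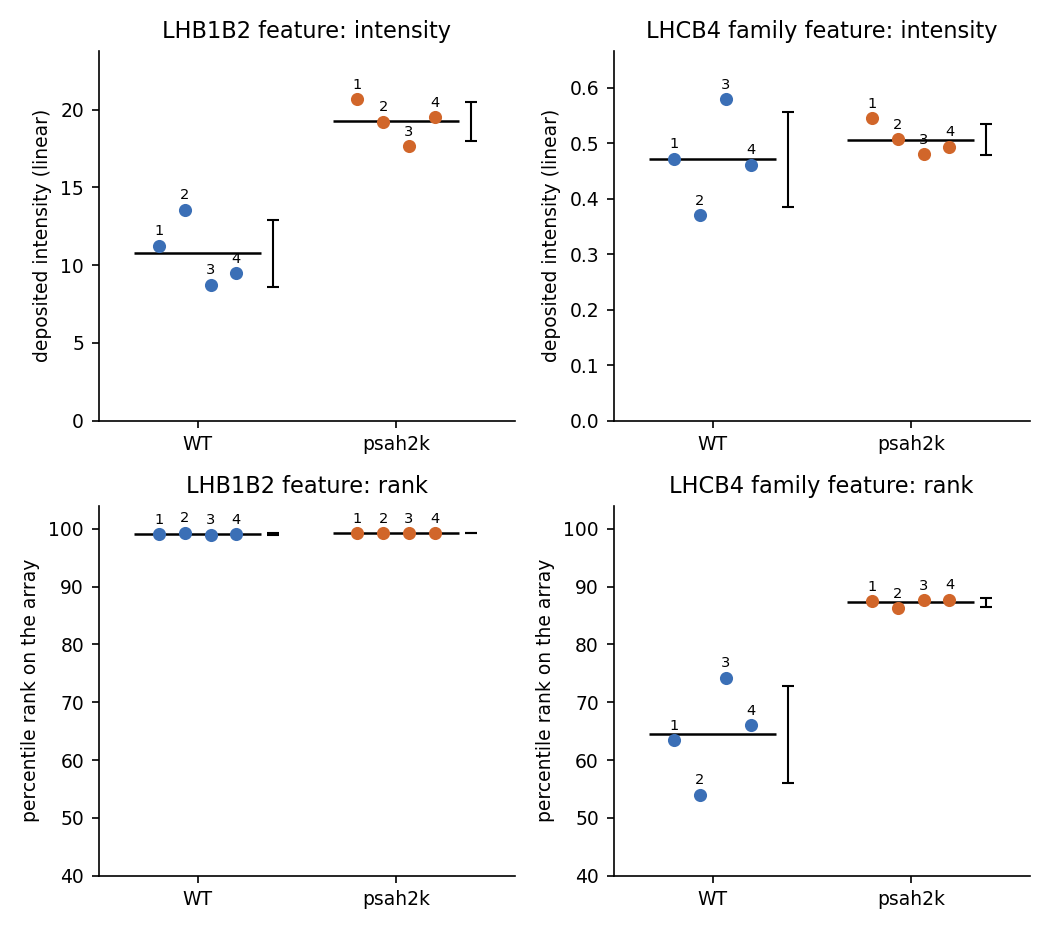
Deposited intensity (top, linear, from 0) and percentile rank on the array (bottom) of the LHB1B2 feature (left) and the LHCB4 family feature (right). Points are arrays with their numbers, lines are genotype means and bars are SD (n = 4). LHB1B2 separates by intensity, from 8.73 to 13.6 in WT and from 17.6 to 20.7 in psah2k, and LHCB4 by rank, from 54.0 to 74.2 and from 86.2 to 87.7.

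Beside the rise in rank of LHCB4, whose own intensity stayed in the WT range, many other features were dimmer in psah2k. On the WT arrays 1257, 1582, 886 and 1167 features were brighter than LHCB4. On the psah2k arrays only 432, 474, 426 and 422 were. In all, 451 features were brighter than LHCB4 on every WT array and on no psah2k array, with a median intensity of 0.820 in WT and 0.102 in psah2k. In the other direction there were 4 such features. For LHB1B2 the exchange was small: 3 features were brighter on every WT array and on no psah2k array, 0 the other way, and 19 were brighter on all 8 arrays.

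Against landmarks of each array, taken over all its features with values of 0 included, the features moved by different amounts. LHB1B2 stood 33.5 ± 4.99 times above the array median in WT and 355 ± 36.5 times in psah2k (SD, n = 4 each). Against the 99th percentile, which lies near its own level, it was at 1.08 ± 0.148 and 1.38 ± 0.159 times. LHCB4 was at 0.757 ± 0.172 times the upper quartile in WT, below it on all 4 arrays, and at 2.70 ± 0.0959 times in psah2k, above it on all 4. Against the 99th percentile, far above its level, LHCB4 went the other way, from 0.0483 ± 0.0127 to 0.0362 ± 0.00381 times. As a share of the summed intensity, LHB1B2 went from 0.347% ± 0.0564 to 0.729% ± 0.0465 and LHCB4 from 0.0153% ± 0.00327 to 0.0192% ± 0.00101 (SD, n = 4 each).

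**Figure D2:**
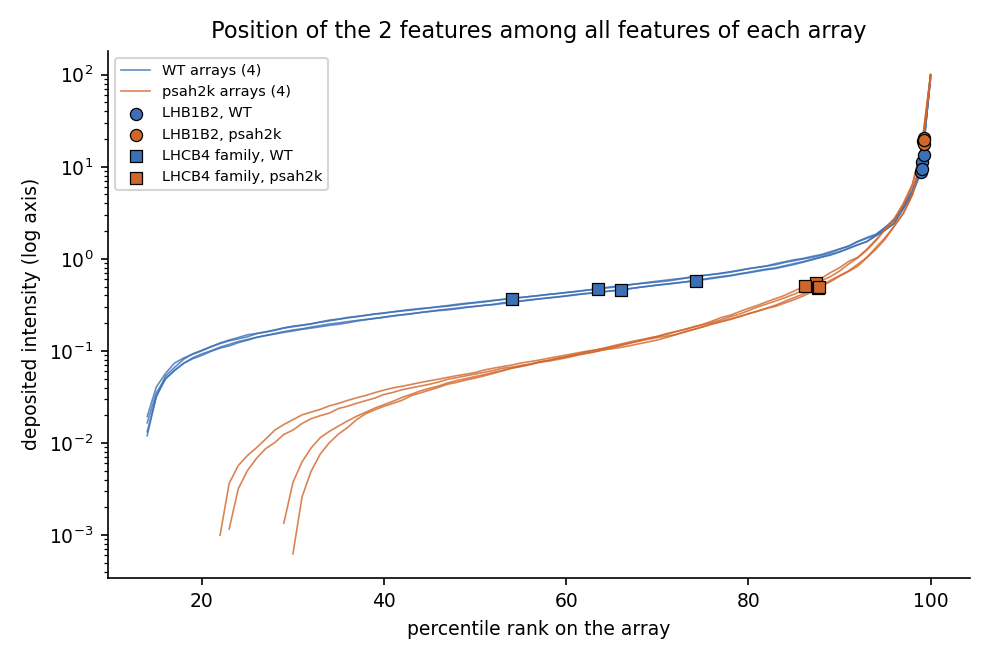
Deposited intensity (log axis, values of 0 not drawn) against percentile rank for all features of each of the 4 WT and 4 psah2k arrays (lines), with LHB1B2 (circles) and the LHCB4 family (squares) marked on each array. The curves of the genotypes lie far apart at the LHCB4 level, with WT above. They overlap at the 98th percentile, from 5.06 to 5.67 in WT and from 4.92 to 6.49 in psah2k. At the 99th percentile, near LHB1B2, psah2k lies above, from 12.3 to 15.9 against 8.89 to 11.1 in WT. The rank of LHB1B2 changes little there.

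Whether either feature was called higher in psah2k therefore depended on how the arrays were scaled to each other. Log2 intensities were compared by limma across all 2353 features with at least 3 values above 0 in each genotype. After quantile normalization, which gives all arrays the same distribution, LHB1B2 had a log2 difference of 0.01 (95% interval −0.36 to 0.38, limma adjusted p = 0.961). LHCB4 rose by 1.41 on the log2 scale (SE 0.230, 95% interval 0.88 to 1.95, limma adjusted p = 0.00155), higher in psah2k on 4 of 4 arrays. Of the tested features, 53.0% were called, 26.3% as higher and 26.6% as lower, so a call of this kind was frequent over the array.

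On the values as deposited the calls changed places. LHB1B2 rose by 0.86 (SE 0.173, 95% interval 0.46 to 1.26, limma adjusted p = 0.00251), one of the 7.31% of tested features called higher there, whereas 73.0% were called lower. LHCB4 had a log2 difference of 0.12 (95% interval −0.26 to 0.51, adjusted p = 0.507), which leaves room for a change of up to 0.51 in that direction. Scaled to the summed intensity, an alternative chosen after seeing the data, LHB1B2 was called (log2 1.08, adjusted p = 0.000463) and LHCB4 was not (0.35, adjusted p = 0.0995).

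Centring each array on the upper quartile or the median of its values above 0 called both as higher. LHB1B2 was then at 2.09 and 2.80 and LHCB4 at 1.35 and 2.06, with adjusted p-values of at most 0.000771. Both centrings and the summed intensity shift all log2 values of an array by the same amount. Neither feature was called lower under any of the 5 scalings.

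Both features stood above the median of all tested features under each scaling. That median was −0.12 after quantile normalization, −1.77 as deposited, −1.54 scaled to the summed intensity, −0.53 after upper quartile and 0.18 after median centring. For LHCB4 the position among the tested features hardly moved: 89.2% of them had a lower log2 difference after quantile normalization and 88.8% as deposited. For LHB1B2 it did move, from 53.4% after quantile normalization to 96.3% as deposited.

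**Figure D3:**
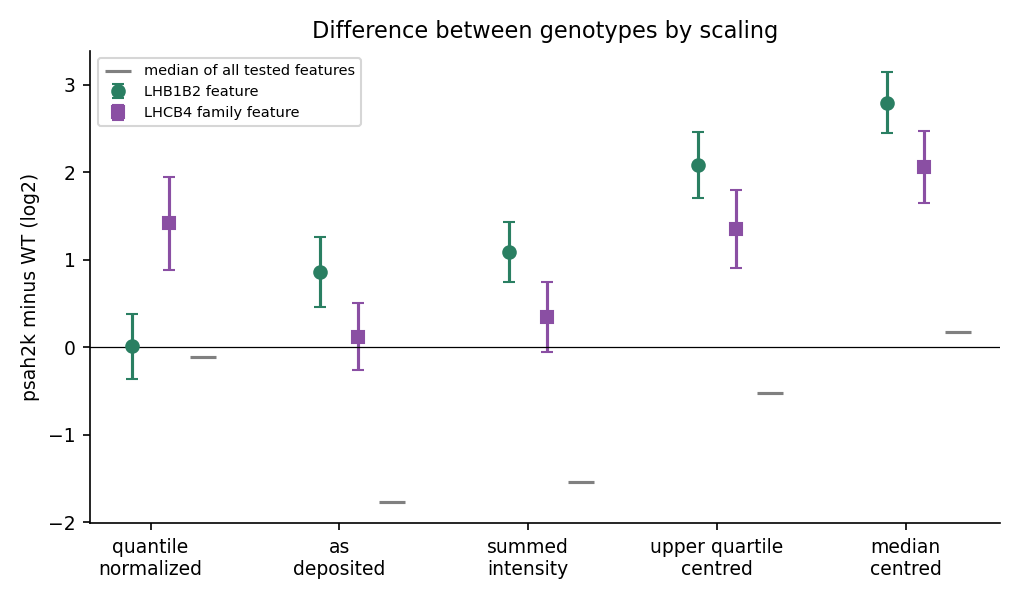
Log2 difference psah2k minus WT of the LHB1B2 feature (circles) and the LHCB4 family feature (squares) under 5 scalings of the arrays, with 95% intervals from limma, and the median of all 2353 tested features (grey lines). The LHB1B2 estimate is near 0 after quantile normalization and 0.86 as deposited, and the LHCB4 estimate is 1.41 and 0.12.

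Brightness went together with the direction of the deposited differences, and the features lie at different levels. When the tested features were sorted into 10 classes of equal size by mean log2 intensity, LHB1B2 fell into the brightest, class 10, and LHCB4 into class 8. In class 10 the median deposited log2 difference was 0.20, with 141 of 236 features above 0. In class 8 it was −1.19, with 26 of 235 above 0. Within those classes, 52 features had a higher deposited log2 difference than LHB1B2, and 22 had a higher one than LHCB4. After quantile normalization the numbers were 125 for LHB1B2 and 24 for LHCB4. The part of brightness in these results was not tested beyond these values.

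The major and the minor antenna signal changed unequally within the arrays, but the direction depended on the scale. An intensity depends on the feature as well as on the transcript, so the ratio of the features says nothing about transcript numbers, and only its change between the genotypes was compared. The log2 intensity of LHB1B2 exceeded that of LHCB4 by 4.58, 5.19, 3.91 and 4.36 on WT arrays 1 to 4. It did so by 5.25, 5.24, 5.20 and 5.30 on psah2k arrays 1 to 4. The groups did not overlap, but WT 2 at 5.19 came close to psah2k 3 at 5.20. Among single tested features, 7.18% had every deposited psah2k intensity above every WT intensity, and 72.6% had every one below. How often other pairs of features at these levels separate by their difference was not counted. The mean rose from 4.51 ± 0.533 to 5.25 ± 0.0429 (SD, n = 4 each), by 0.74 on the log2 scale (exact permutation test, two-sided p = 0.0286, adjusted p = 0.0381 over the 4 tests). A scale factor common to an array cannot alter this difference, but an amount added to or subtracted from all its values can. The background subtraction is not known here, and its part in the difference was not tested.

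By rank the gap narrowed, almost wholly through the rise of LHCB4 described above, while the mean rank of LHB1B2 differed by 0.153 points. LHB1B2 stood 35.6, 45.3, 24.7 and 33.0 percentage points above LHCB4 on WT arrays 1 to 4, and 11.8, 13.0, 11.7 and 11.5 points on psah2k arrays 1 to 4. The mean gap fell by 22.7 points, from 34.7 ± 8.47 to 12.0 ± 0.656 (SD, n = 4 each), with no overlap (exact permutation test, two-sided p = 0.0286, adjusted p = 0.0381 over the 4 tests). This test largely repeats that of the LHCB4 rank, which rose by 22.8 points, and is no separate result. It still counts among the 4 tests of the adjustment. Without it, the adjusted p of 0.0381 for the LHCB4 rank and for the log2 difference would be higher. Quantile normalization, which follows the ranks, turned the log2 difference between the features, which was then 1.40 lower in psah2k (−1.40, exact permutation p = 0.0286). The medians of the brightness classes of the features differed in the same direction as the deposited contrast, by 1.39 on the deposited log2 scale. The deposited contrast of 0.74 was thus smaller than the difference between the classes. After quantile normalization the class medians differed by 0.04.

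**Figure D4:**
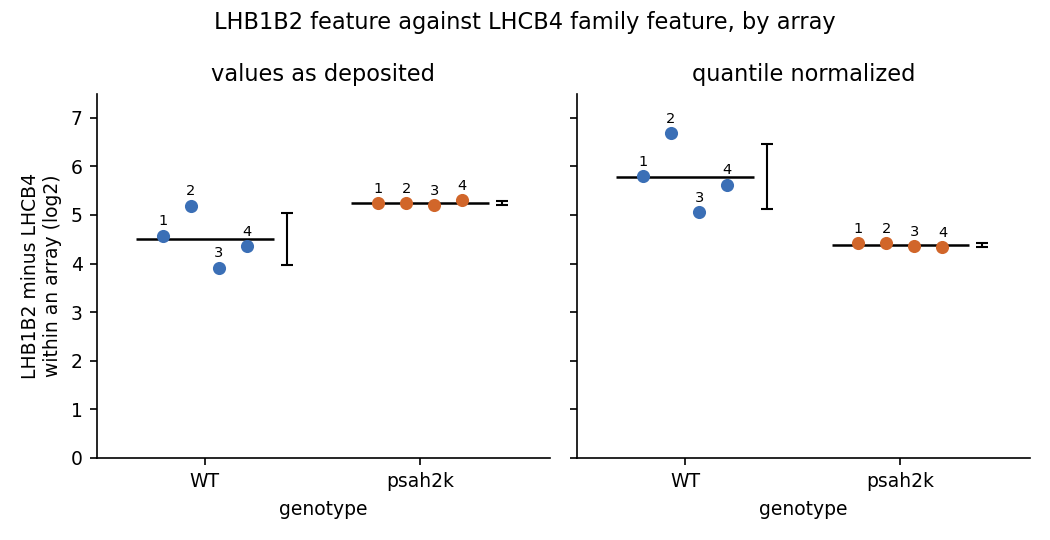
Log2 value of the LHB1B2 feature minus that of the LHCB4 family feature on each array, as deposited (left) and after quantile normalization (right), with array numbers, genotype means (lines) and SD (bars, n = 4). The psah2k arrays are above all WT arrays on the left, at 5.20 to 5.30, and below all of them on the right.

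Among the WT arrays the features did not vary together. LHB1B2 was brightest on WT 2 and dimmest on WT 3, and LHCB4 was dimmest on WT 2 and brightest on WT 3. WT arrays 1 and 2 had the higher LHB1B2 intensities and WT arrays 3 and 4 the lower ones. With numbers 1 and 2 only, the deposited contrast between the features rose by 0.36, and with numbers 3 and 4 only by 1.11 on the log2 scale, and 2 against 2 arrays cannot pass the exact permutation test (smallest p = 0.333). The psah2k arrays differed little in either feature.

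Little else of the antenna was measured by features of its own. Of 15 listed genes of the photosystem II antenna, the 4 named above were the ones covered. The 6 genes of the photosystem I antenna, the 3 of antenna-related proteins such as PSBS, the 10 for antenna insertion, chlorophyll b and their regulation, and the 4 for antenna phosphorylation, among them the kinase gene STN7, had no feature assigned to them alone or only to genes of their list. In the RefSeq gene table of Arabidopsis the gene next to LHB1B2 is LHB1B1, another member of the LHCB1 group. LHCB1 genes are close copies of each other, and RNA of other members may have bound to the LHB1B2 feature, which was not tested.

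The 13 listed nuclear genes of the photosystem II core and its assembly had 3 tested features, of which 1 was called higher and 1 lower after quantile normalization, beside the 53.0% called over the array. PSBY, a small subunit, had intensities from 1.79 to 2.05 in WT and from 2.99 to 4.83 in psah2k, with no overlap. Such a separation upward by deposited intensity was seen in 7.18% of tested features, and one downward in 72.6%. It rose by 0.83 on the log2 scale after quantile normalization (limma adjusted p = 0.000794) and by 0.97 as deposited (adjusted p = 0.00265), but averaging arrays 1-2 and 3-4 beforehand took away the call (adjusted p = 0.0556). Its direction thus did not turn with the scale. For LHB1B2 the same estimates were 0.01 and 0.86, and the limma interval of the first ran from −0.36 to 0.38. For LHCB4 they were 1.41 and 0.12, and the interval of the second ran from −0.26 to 0.51. These intervals include either direction, so they cannot tell whether LHB1B2 or LHCB4 turned with the scale. The contrast between LHB1B2 and LHCB4 did change sign.

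PSBW, a small subunit of high signal like LHB1B2, had overlapping intensities, from 43.8 to 45.8 in WT and from 34.4 to 45.2 in psah2k. It fell by 0.60 after quantile normalization (adjusted p = 0.0298) and was at −0.17 as deposited (adjusted p = 0.280), and it was higher, at 1.77 and 1.06, after median and upper quartile centring. The call of PSBW after quantile normalization survived leaving out psah2k 4, but was lost on leaving out each of the other 7 arrays (adjusted p = 0.0538 to 0.0852). It was also lost with numbers averaged (adjusted p = 0.126), with zeros replaced by an array's lowest positive intensity (0.218) and with a pseudocount (0.184). PSB27, an assembly factor, ranged from 0.701 to 2.41 in WT and from 0.639 to 1.29 in psah2k, and had a log2 difference of −0.36 (adjusted p = 0.554). It was called lower without WT 4, its dimmest WT array (−0.91, adjusted p = 0.0163), and with numbers 1 and 2 only (−0.95, adjusted p = 0.0154), and higher after median centring (1.21, adjusted p = 0.0313). Of the 12 listed photosystem I genes, 1 had a feature: PSAN, a lumenal subunit, rose by 1.02 after quantile normalization (adjusted p = 0.00490) and by 1.47 as deposited, and missed the threshold with numbers averaged (adjusted p = 0.0832).

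As a description of likeness, the features with 1 gene and values above 0 on all arrays were ranked by Pearson's r of their quantile normalized log2 values with those of each antenna feature over the 8 arrays. The 8 arrays form a WT and a psah2k cluster, so r reflects the gap between these clusters where there is one. For LHCB4 the nearest of 338 were AT3G16760 (r = 0.990), AT4G09620 (r = 0.984) and AT2G31800 (r = 0.978). Each was called higher after quantile normalization, by 0.90, 0.91 and 0.81 on the log2 scale (limma adjusted p = 0.00148, 0.00182 and 0.00228). As deposited they had differences of −0.64, 0.20 and −0.75, so the likeness to LHCB4 does not hold for the deposited direction of AT3G16760 and AT2G31800.

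For LHB1B2 no gene came as close. The nearest of 337 were LAS, a gene of the GRAS family known for its part in axillary meristems (r = 0.692), AT4G29890 (r = 0.653) and AT4G22830 (r = 0.632). The log2 differences of these 3 after quantile normalization, −0.28, 0.05 and −0.20, did not pass the test (limma adjusted p = 0.233, 0.810 and 0.390). As deposited they were at −2.01, 0.01 and 0.08, against 0.86 for LHB1B2.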

How the data were processed

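RNA of 4 WT and 4 psah2k samples was measured on 1-channel arrays, grouped by the sample titles. The authors deposited 1 intensity per feature and array on a linear scale, with 100 as the highest value. The brightest feature was at 100 on WT 3 and on all 4 psah2k arrays, and at 90.9, 92.5 and 96.7 on WT 1, 2 and 4. The method of background subtraction and scaling was not given in the sources used here. Of 3439 features, the platform annotation lists 1562, 692 with 1 gene and 870 with several. Gene names came from the RefSeq table through gene identifiers. Start positions in that table were used only to find the genes next to the members.

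Values of 0 were treated as missing in log2 values. Arrays were quantile normalized over all features, and the 2353 features with at least 3 values per genotype were tested with limma 3.58.1 in R 4.3.3 (lmFit, eBayes, two-sided, Benjamini-Hochberg over all features, threshold 0.05). Ranks were taken among all features of an array with ties averaged, and single values were compared by exact permutation tests. Named genes were the members, listed genes with a feature, and the 3 nearest patterns of each member. The members and lists were chosen with earlier results of these data known. Alternatives covered scaling, zeros (a pseudocount of 0.0156, the 5th percentile of positive values), filters, the variance model, the replicate block, averaged or separate numbers 1-2 and 3-4, and each array left out. Figures were drawn with matplotlib 3.10.9. No sequences are shown.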

Additional observations from a re-analysis of the deposited data

Results flagged for a closer look

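On psah2k 2 the percentile rank of LHB1B2 was 99.19 against 99.27 on each of the other 3 psah2k arrays, which tie, so the gap equals the whole range of the group. On that array 28 features were brighter, against 25 on the others. It was 1 of 24 groups of 4 values examined for such a gap. Chance marks about 1 in 20 where values do not tie, so that rate does not apply to this group.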

How the results depend on the processing

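The calls of both features turned on the scaling of the arrays. For LHB1B2, the log2 difference of 0.01 became 0.86 as deposited, 1.08 scaled to the summed intensity, 2.09 after upper quartile and 2.80 after median centring, all past the threshold. It was −0.25 with numbers 1 and 2 only (adjusted p = 0.408) and −0.043 to 0.13 with 1 array left out, and it passed under none of the settings with quantile normalization. For LHCB4, the log2 difference of 1.41 missed the threshold as deposited (0.12) and scaled to the summed intensity (0.35), and passed under the other 19 alternatives, with 1.29 to 1.67 when 1 array was left out. Averaging numbers 1-2 and 3-4 first gave LHCB4 an adjusted p of 0.0421. The number of features called, 1246, was 1890 as deposited, 689 with numbers averaged, 820 with numbers 3 and 4 only, and 1025 to 1082 with 1 array left out. The split of 620 higher and 626 lower became 172 and 1718 as deposited, 232 and 1585 scaled to the summed intensity, 817 and 396 after median and 567 and 790 after upper quartile centring.

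The contrast of LHB1B2 with LHCB4 (0.74) turned to −1.40 after quantile normalization. With 1 array left out it was 0.54 to 0.96, the LHCB4 rank difference 19.3 to 26.1 points, the rank gap −26.0 to −19.1 and the LHB1B2 rank difference 0.114 to 0.221. The exact p in these tests of 3 against 4 arrays was 0.0286 or 0.0571 for the first 3 measures, all without overlap, and 0.0286 without WT 2 but 0.143 to 0.257 otherwise for the LHB1B2 rank. The cause was not tested.

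With the replicate number as a block, the log2 differences were 0.01 and 1.41 (adjusted p = 0.967 and 0.00566) and 1087 features were called. Deviations of same-numbered arrays correlated at 0.0561 to 0.126, so the numbers were not taken as pairs. Yet 8 of 8 arrays correlated best with their own number, and the samples are listed by number with genotypes alternating. The 99th percentile was 11.1 and 10.4 on WT 1 and 2, and 8.89 and 9.27 on WT 3 and 4. It was 15.9 and 15.9 on psah2k 1 and 2, and 12.3 and 12.4 on psah2k 3 and 4. The summed intensity split in the same way, at 3178 and 3209 on WT 1 and 2 against 2972 and 3001 on WT 3 and 4. On psah2k 1 and 2 it was 2837 and 2859, against 2423 and 2482 on psah2k 3 and 4. The upper quartile was also higher on arrays 1 and 2 in both genotypes. Counts of 0 split this way in psah2k, at 972 and 1014 against 772 and 739, but not in WT. The exact tests took all 4 arrays of a genotype as separate, so such a grouping could make their p-values too small.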
